A study of Mus musculus with 8 samples.

Results

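Matrix proteases and their inhibitors were followed as a set of 10 genes, 6 matrix metalloproteinases (Mmp2, Mmp3, Mmp9, Mmp10, Mmp13 and Mmp14), 3 tissue inhibitors of metalloproteinases (Timp1, Timp2 and Timp3) and the protease Plau. They were picked by symbol from the 34478 genes of the deposited table, and all 10 were found. RNA was sequenced from 4 primary murine pancreatic ductal adenocarcinoma (PDAC) cell lines, numbered #1, #3, #5 and #10, after DMSO or after 48 h with trametinib, an inhibitor of the kinase MEK in the MAPK pathway (MEKi). Every line, the DMSO controls included, comes from a mouse model with the alleles Ptf1awt/Cre and Trp53loxP/loxP, in which a Cre recombinase made from the Ptf1a locus of the pancreatic lineage deletes Trp53. Each line received trametinib at its own IC50, so line and dose cannot be told apart. There was 1 library per line and treatment, 4 DMSO and 4 trametinib libraries, and the sources used here do not say whether each line came from its own mouse. P-values therefore measure the spread between these lines.

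Matrix metalloproteinases (MMPs) are zinc enzymes that cut collagens, proteoglycans and other proteins of the extracellular matrix, and they are made as inactive precursors that other proteases activate. TIMPs bind the active enzymes and block them, while urokinase, the product of Plau, turns plasminogen into plasmin, which degrades fibrin and can activate MMP precursors. Tumors of the pancreas are rich in matrix, and many MMP genes are textbook targets of AP-1, a transcription factor that ERK signaling, the output of MEK, induces.

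The promoters are shown first because those of the secreted proteases Mmp3, Mmp10 and Mmp13 differ in exact matches to short motifs from those of Mmp14 and the TIMPs. RefSeq windows of GRCm38.p6, from 250 bases before to 50 bases after the annotated start, were found for 7 of the 10 genes, all but Mmp2, Mmp9 and Plau. The window of Mmp3 is chr9:7445572-7445871 (+), that of Mmp10 is chr9:7502092-7502391 (+), and that of Mmp13 is chr9:7272264-7272563 (+). The window of Mmp14 is chr14:54431348-54431647 (+) and that of Timp2 is chr11:118355362-118355661 (-). Each is printed on the strand of its gene from 5′ to 3′, with capitals for matches on either strand to 3 short motifs. The AP-1 motif was searched as TGANTCA. The TATA box was searched as TATAAA. The GC box was searched as GGGCGG.
Mmp3: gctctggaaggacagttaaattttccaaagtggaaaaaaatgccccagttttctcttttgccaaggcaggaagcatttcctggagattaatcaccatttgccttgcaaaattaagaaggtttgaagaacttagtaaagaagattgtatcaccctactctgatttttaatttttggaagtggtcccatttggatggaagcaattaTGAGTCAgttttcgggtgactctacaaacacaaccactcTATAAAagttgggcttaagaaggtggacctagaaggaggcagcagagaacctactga
Mmp10: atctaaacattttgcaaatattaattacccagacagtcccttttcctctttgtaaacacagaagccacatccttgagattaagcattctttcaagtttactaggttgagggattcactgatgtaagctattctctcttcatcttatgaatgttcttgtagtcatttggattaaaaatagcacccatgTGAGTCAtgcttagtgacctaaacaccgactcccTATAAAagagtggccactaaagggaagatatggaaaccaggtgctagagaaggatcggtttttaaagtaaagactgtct
Mmp13: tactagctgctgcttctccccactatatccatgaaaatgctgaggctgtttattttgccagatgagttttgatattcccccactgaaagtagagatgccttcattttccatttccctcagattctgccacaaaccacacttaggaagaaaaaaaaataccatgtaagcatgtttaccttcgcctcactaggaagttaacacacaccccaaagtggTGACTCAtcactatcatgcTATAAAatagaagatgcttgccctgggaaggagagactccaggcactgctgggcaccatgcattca
Mmp14: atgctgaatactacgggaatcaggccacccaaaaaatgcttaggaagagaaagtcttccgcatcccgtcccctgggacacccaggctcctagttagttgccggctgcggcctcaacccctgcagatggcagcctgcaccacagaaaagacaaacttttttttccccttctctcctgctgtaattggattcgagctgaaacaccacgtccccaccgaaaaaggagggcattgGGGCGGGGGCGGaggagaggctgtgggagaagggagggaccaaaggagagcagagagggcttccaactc
Timp2: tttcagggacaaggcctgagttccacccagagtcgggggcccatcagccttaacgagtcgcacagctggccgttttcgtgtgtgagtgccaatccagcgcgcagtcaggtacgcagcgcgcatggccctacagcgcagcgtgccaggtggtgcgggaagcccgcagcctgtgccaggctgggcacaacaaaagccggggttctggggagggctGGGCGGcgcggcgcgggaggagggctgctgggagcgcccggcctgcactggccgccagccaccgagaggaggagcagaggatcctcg

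The 3 secreted proteases that lie together on chromosome 9 each held 1 AP-1 match close to the start. Its first base was at -46 in Mmp3 and -63 in Mmp10, where the match read TGAGTCA, and at -35 in Mmp13, where it read TGACTCA. The same 3 windows held TATAAA at -7, -29 and -16. The windows of Mmp14, Timp1, Timp2 and Timp3 held no exact match to either and had 2, 1, 1 and 2 GC boxes. Sites that depart from the searched letters were not counted, and the Timp1 window holds TGAGTAA, which resembles the AP-1 letters. Over all 32851 windows in the table, 7.81% held the AP-1 letters, 13.6% the TATA box and 35.7% the GC box. The letters AGGAAG, a core of ETS factor sites, occurred in 35.4% of all windows and in those of Mmp3, Mmp13, Mmp14, Timp1 and Timp3. G and C made up 37.7% of the window of Mmp10, 40.0% in Mmp3 and 43.7% in Mmp13. They made up 55.0% in Timp1 and 56.0% in Mmp14, close to the median of 52.7% over all windows, and 67.0% in Timp3 and 68.7% in Timp2. These matches describe the letters and show no binding.

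With trametinib, the membrane-bound collagenase Mmp14 and the inhibitors Timp2 and Timp3 rose and the inhibitor Timp1 fell, each in 4 of 4 lines. The secreted proteases Mmp3, Mmp10 and Mmp13 and the protease Plau did not pass the test over the 4 lines. Mmp2 and Mmp9, the gelatinases, were close to 0 in most libraries and were not tested. Changes were tested with limma on log2(normalized count + 1), a scale that understates the change of low genes, blocked by cell line. P-values were adjusted by Benjamini-Hochberg over 15888 genes, those averaging 10 normalized counts or more. A normalized count is the authors' read count of a gene scaled between libraries. Of the 8 genes of the set that passed this filter, 3 were higher at an adjusted p under 0.05, where 27.3% of all genes tested were, and 1 was lower, where 25.6% were. This split over all genes, 4341 higher and 4075 lower, moved to 5333 and 3285 with libraries rescaled to equal totals, while the counts of the set stayed at 3 and 1. In Mmp14 and Timp2 every trametinib library lay above every DMSO library, which 15.1% of all genes tested showed. No gene of the set had every trametinib library below every DMSO library, against 16.2% of all genes tested. The median log2 fold change of the 8 genes was -0.14, beside 0.07 for all genes tested. In bulk RNA, fewer cells that make a transcript and less of it per cell cannot be told apart.

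Compared per kb of exon, so that long and short genes can be set side by side, Timp2 was the most abundant gene of the set in both treatments. In DMSO its level was 3699 ± 560 (SD, n = 4 lines) normalized counts per kb, above Timp1 at 1522 ± 507 and Mmp14 at 663 ± 204 (both SD, n = 4 lines). The ranges of these 3 did not overlap. Timp3 at 548 and Plau at 293 followed, with ranges that overlapped those of their neighbours. Mmp13 at 197 overlapped Plau and lay above Mmp10 in every line without overlap. Mmp10 at 21.7, Mmp3 at 16.5, Mmp2 at 1.42 and Mmp9 at 0.52 closed the order and overlapped from each to the next. With trametinib Mmp14 stood second at 2751 ± 546 (SD, n = 4 lines) normalized counts per kb, below Timp2 at 6562 and above Timp3 at 1205, without overlap on either side. Timp3 and Timp1, the latter at 896, overlapped. Plau at 235, Mmp13 at 73.7 and Mmp10 at 17.4 each lay apart from the gene before, and Mmp3, Mmp9 and Mmp2 overlapped at 1.49 or less.

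**Figure D1:**
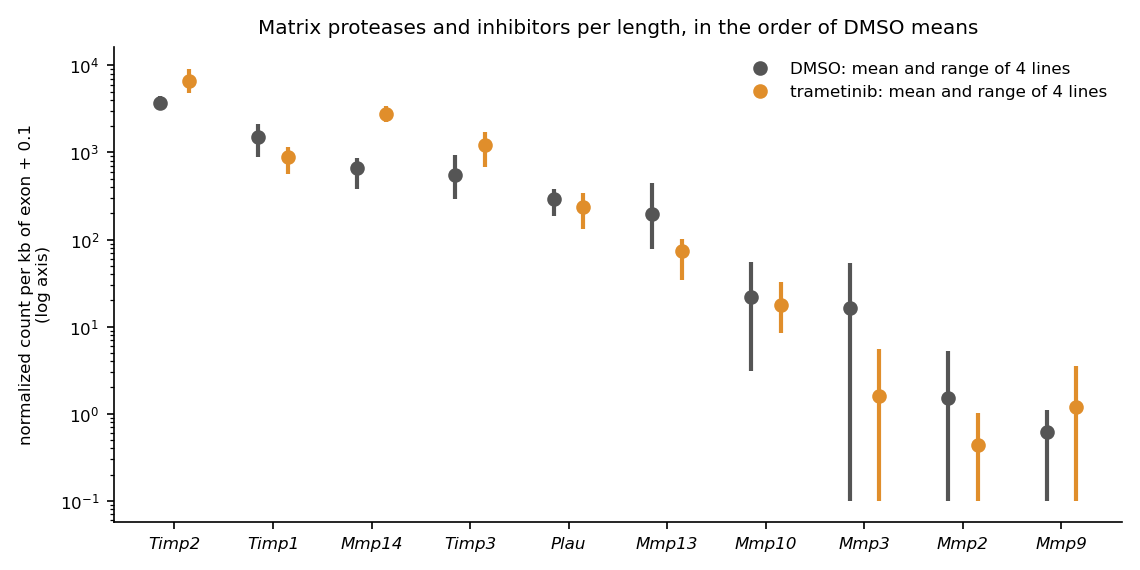
Levels of the 10 genes in normalized counts per kb of exon plus 0.1 on a log axis, as the mean (point) and range (bar) of 4 lines in DMSO (grey) and with trametinib (orange). The mean of Mmp14 moves from 663 to 2751 and that of Timp1 from 1522 to 896, which exchanges their order.

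Mmp14, on chromosome 14 from 54431612 to 54445364 (+) of GRCm38, encodes a collagenase anchored in the cell membrane that also activates the Mmp2 precursor. DMSO and trametinib libraries held 5148 and 17970 normalized counts in line #1, 2278 and 20201 in line #3, 4420 and 13309 in line #5, and 3970 and 14092 in line #10. The lowest trametinib library thus lay far above the highest DMSO library, and line #3 had both the lowest DMSO value and the highest trametinib value. The fitted log2 fold change was 2.09 (standard error 0.25, 95% interval 1.50 to 2.69, adjusted p = 0.00095 in limma), or 4.26-fold. Line by line it was 1.80, 3.15, 1.59 and 1.83, and without line #3 the fit gave 1.74. Mmp14 had an adjusted p under 0.05 in all 15 alternative analyses, with 0.042 as the highest when a change of more than 2-fold was tested. Per kb, Mmp14 made up 60.6% to 84.5% of the summed level of the 6 MMPs in the DMSO libraries and 95.6% to 98.0% in the trametinib libraries. This sum leaves out the MMPs outside the set, among them Mmp15. In DMSO, Mmp15 stood at 2706 normalized counts in line #3, above Mmp14 there, and below Mmp14 in the other lines.

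Of the inhibitors, Timp2 on chromosome 11 from 118301069 to 118355740 (-) encodes the TIMP that binds Mmp14 at the cell surface and, in that complex, takes part in Mmp2 activation. It stood at 15056 normalized counts in DMSO and 26096 with trametinib in line #1, at 12284 and 35728 in line #3, at 17180 and 21909 in line #5, and at 13120 and 18527 in line #10. All trametinib libraries were above all DMSO libraries, with line #3 lowest in DMSO and highest with trametinib, as for Mmp14. The log2 fold change was 0.80 (standard error 0.19, 95% interval 0.33 to 1.26, adjusted p = 0.013 in limma), or 1.74-fold, and 0.55 without line #3 (adjusted p = 0.0044 in limma).

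Timp3, on chromosome 10 from 86300372 to 86349506 (+), encodes the TIMP that stays bound to the matrix. Line #1 had 2401 normalized counts in DMSO and 7312 with trametinib, line #3 had 4048 and 12331, line #5 had 7518 and 14133, and line #10 had 3875 and 5476. Each line rose, but the groups overlapped, since line #5 in DMSO exceeded lines #1 and #10 with trametinib. The log2 fold change was 1.16 (standard error 0.20, 95% interval 0.69 to 1.63, adjusted p = 0.0032 in limma, and 0.054 without the line as a block). Its exons overlap those of Syn3 on the opposite strand. The libraries were stranded, but whether the counting used the strand is not given in the sources used here, and Syn3 stood at 14.8 to 51.0 normalized counts in DMSO and 41.6 to 78.0 with trametinib.

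Timp1, on the X chromosome from 20870166 to 20874735 (+), encodes a soluble inhibitor that acts on most secreted MMPs and weakly on Mmp14. DMSO and trametinib libraries held 1876 and 1031 normalized counts in line #1, 784 and 501 in line #3, 1296 and 773 in line #5, and 1449 and 878 in line #10. The 4 lines kept their order, #1, #10, #5 and #3 from high to low, in both treatments, and the groups overlapped because line #3 in DMSO was as low as treated libraries of other lines. The log2 fold change was -0.74 (standard error 0.092, 95% interval -0.96 to -0.52, adjusted p = 0.0011 in limma), and the adjusted p was 0.097 without the line as a block. The change varied little between lines, from -0.86 to -0.65, with an SD of 0.090 that was larger than that of 5.80% of the genes tested. Of the summed TIMP level per kb, Timp1 held 19.5% to 33.7% in DMSO and 5.01% to 15.4% with trametinib, while Timp2 held 61.5% to 69.5% and then 68.3% to 81.5%, and Timp3 4.70% to 13.6% and then 10.3% to 21.1%.

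**Figure D2:**
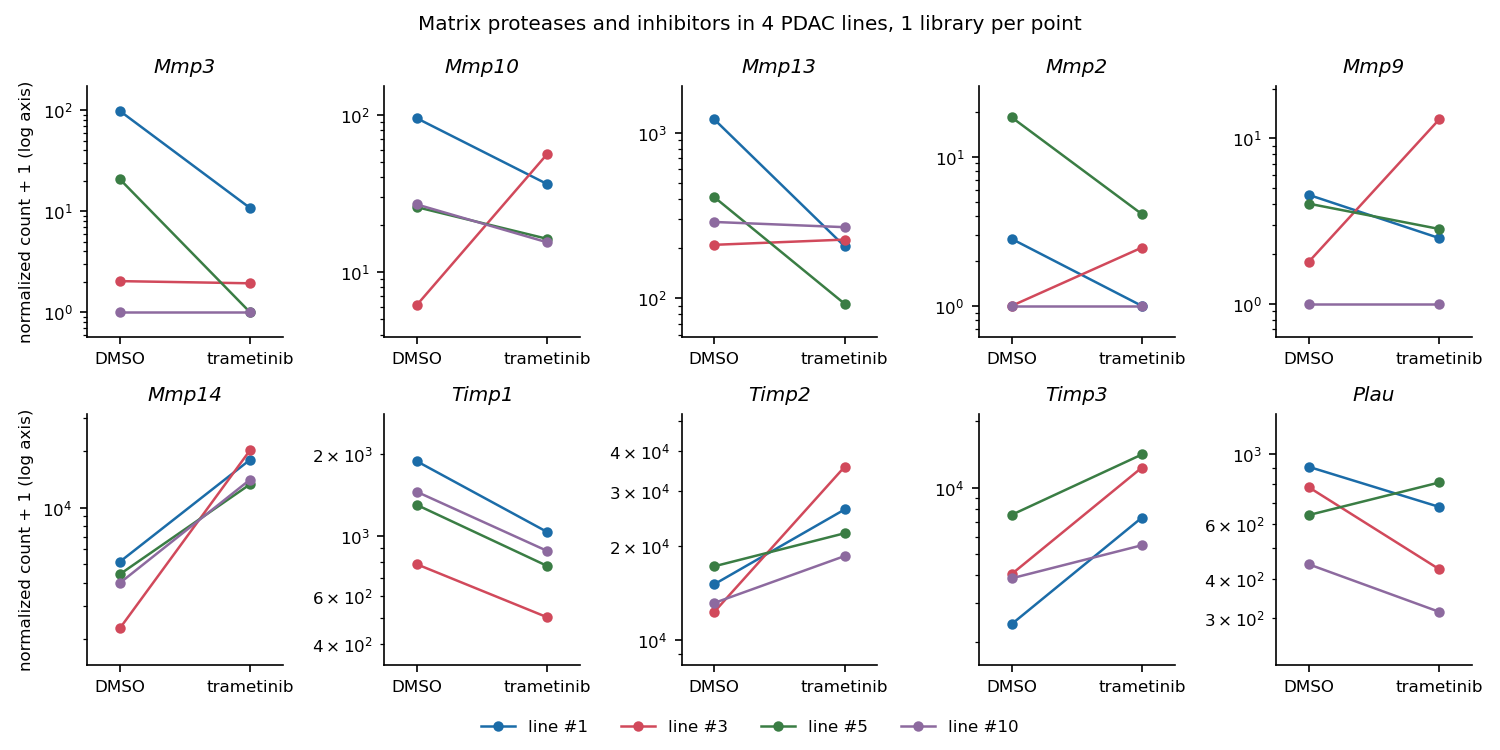
Normalized count plus 1 on log axes, each gene with its own scale, in DMSO and with trametinib, with a coloured line joining the 2 libraries of a cell line. Mmp14, Timp2 and Timp3 rise and Timp1 falls in all 4 lines, while for Mmp10, Mmp13 and Plau 1 line goes against the other 3.

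The secreted proteases of chromosome 9 had different values of change from line to line. Mmp13, from 7272514 to 7283331 (+), encodes the main interstitial collagenase of the mouse. Line #1 had 1205 normalized counts in DMSO and 205 with trametinib, and line #5 had 407 and 91.2, but line #3 had 209 and 225 and line #10 had 288 and 267. Lines #1 and #5, the highest in DMSO, had log2 fold changes of -2.55 and -2.15, and lines #3 and #10 had 0.11 and -0.10. Over the 4 lines the log2 fold change was -1.17 (standard error 0.47, 95% interval -2.30 to -0.045, adjusted p = 0.075 in limma). It was -1.60 without line #3 (adjusted p = 0.025 in limma) and -1.40 after quantile normalization of the libraries (adjusted p = 0.045 in limma), but -0.72 without line #1 (adjusted p = 0.26 in limma).

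Mmp10, from 7502352 to 7510240 (+), encodes stromelysin-2, which cuts proteoglycans and activates other MMP precursors. It stood at 93.8 normalized counts in DMSO and 35.2 with trametinib in line #1, at 24.8 and 15.2 in line #5, and at 25.9 and 14.4 in line #10, but at 5.18 and 55.4 in line #3. Line #3 was thus the lowest library in DMSO, at an estimated 5.0 reads, and the highest with trametinib, at 59.2 reads. The log2 fold changes were -1.39, -0.67, -0.80 and, in line #3, 3.19, and the fit over the 4 lines gave 0.08 (standard error 0.75, 95% interval -1.69 to 1.86, adjusted p = 0.94 in limma). Without line #3 it was -0.95 (adjusted p = 0.047 in limma).

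Mmp3, from 7445822 to 7455975 (+), encodes stromelysin-1. It stood at 97.7 normalized counts in DMSO and 9.77 with trametinib in line #1, and at 19.9 in DMSO in line #5, where it was listed at 0 with trametinib. In line #3 both libraries held about 1 read, at 1.04 and 0.94 normalized counts, and in line #10 both were listed at 0. The gene passed the filter through the DMSO libraries of lines #1 and #5, and 5 of its 8 libraries lay at or under the level of 3 reads, which corresponds to 2.33 to 3.72 normalized counts. The log2 fold change was -1.91 (standard error 0.86, 95% interval -3.95 to 0.13, adjusted p = 0.10 in limma), and none of the 13 alternatives that could be fitted brought the adjusted p under 0.05. Without line #5 it was -1.09 (adjusted p = 0.33 in limma). Mmp3 shares 14.6% of its 31-base stretches with other genes, 202 of them with Mmp10, so reads could be split between the pair. In line #3, where Mmp10 stood at 55.4 with trametinib, Mmp3 was at 0.94.

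These genes belong to a cluster of 10 MMP genes that spans 427 kb of chromosome 9, from 7272514 to 7699585. Mmp13 and Mmp10 were the ones above 3 reads in every library, and 5 of the 10, Mmp1a, Mmp1b, Mmp7, Mmp8 and Mmp20, were above it in none. Mmp12, the macrophage elastase gene between Mmp13 and Mmp3, stood at 0.86 to 8.56 normalized counts in DMSO and 8.62 to 14.0 with trametinib, below the filter and without a test. In line #5 its normalized counts, 8.56 and 8.62, were close to each other.

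The gelatinases degrade denatured collagen and the type IV collagen of basement membranes. Mmp2, on chromosome 8 from 92827291 to 92853420 (+), was at 17.4 normalized counts, an estimated 14.0 reads, in the DMSO library of line #5 and at 3.12 with trametinib there. Its other 6 libraries lay between 0 and 1.81, so no direction can be read outside line #5. Mmp9, on chromosome 2 from 164940780 to 164955850 (+), went from 0.79 to 12.0 in line #3, which is 12.9 reads, and its other libraries lay between 0 and 3.56. Both genes had 6 of 8 libraries at or under the level of 3 reads.

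Plau, on chromosome 14 from 20836660 to 20843385 (+), encodes urokinase. DMSO and trametinib libraries held 909 and 677 normalized counts in line #1, 782 and 428 in line #3, and 444 and 313 in line #10, but 637 and 810 in line #5. The groups overlapped widely. The log2 fold change was -0.36 (standard error 0.20, 95% interval -0.83 to 0.11, adjusted p = 0.16 in limma), -0.60 without line #5 (adjusted p = 0.027 in limma) and -0.19 without line #3 (adjusted p = 0.41 in limma).

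The sign of change was not the same in all 4 lines for 4 of the 8 genes tested, a share that was 34.4% among all genes tested. In 3 of the 4, Mmp10, Mmp13 and Plau, lines had opposite signs, and in Mmp3 no line was higher and line #10 was listed at 0 in both libraries. The SD of the log2 fold change over the lines was 2.09 for Mmp10 and 1.37 for Mmp13, beside a median of 0.32 over the genes tested. That of Mmp3, 2.22, is set in part by detection, as lines #3 and #10 held at most about 1 read in either treatment. Levels differed between the lines in Timp1 (adjusted p = 0.0076 in the moderated F-test of limma) and Timp3 (adjusted p = 0.039), 2 of the 8 genes, beside 27.6% of all genes tested. Without line #3, 6 of the 8 passed this test, beside 29.0% of all genes tested in the same way.

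In Mmp10 and Mmp14 the change in line #3 stood apart from the other 3 lines, which lay close together. Its log2 fold change was the highest of the 4 lines for 6 of the 8 genes tested, while 29.6% of all genes tested had their highest change in line #3, and for Plau it was the lowest. For Timp3, one of the 6, lines #1 and #3 had the same value at 1.61. Among the genes tested other than Mmp3, which held about 1 read in both libraries of line #3, the line #3 value minus the mean of the other 3 lines was 4.14 for Mmp10, 1.71 for Mmp13, 1.41 for Mmp14, 0.99 for Timp2, 0.60 for Timp3, 0.13 for Timp1 and -0.67 for Plau on the log2 scale. This difference has no test, since each line has 1 library per treatment. The summed level of 8 pancreatic epithelial markers was 231006 to 353416 normalized counts in DMSO and 119359 to 231497 with trametinib, and line #3 went from 273982 to 119359, the lowest library. The keratins make up most of this sum, and Krt8, Krt18 and Sox9 were lowest there, while Krt7, Krt19, Muc1 and Cdh1 were lower in another treated line. Of 5 endothelial markers 4 were tested and 2, Tek and Vwf, passed as higher, while Pecam1 and Kdr did not pass (limma adjusted p = 0.82 and 0.28). Tek and Vwf were higher with trametinib in 4 of 4 lines, by 3.77 (limma adjusted p = 0.0015) and 2.14 (limma adjusted p = 0.044, with 0.11 without line #1 and 0.21 without the block) on the log2 scale. Tek had a mean of 8.21 normalized counts in DMSO, and so passed the filter only through the trametinib libraries. Vwf was at 1.17 without line #3 (limma adjusted p = 0.055), and also lost the call with quantile normalization, median centring, no filter, no trend and a pseudocount of 5 (limma adjusted p = 0.051 to 0.091). In line #3 they stood at 21.5 and 805, and at 27.4 and 948, in DMSO and with trametinib. The defining endothelial markers Pecam1 and Cdh5 had 6.50 and 12.3, and 2.85 and 5.97, in the same libraries. Pecam1 was higher with trametinib in 2 of 4 lines, #3 and #10, and lower in lines #1 and #5. Cdh5 was higher in 3 of 4 lines, and line #5 had it listed at 0 under both treatments. The summed level of the 5 endothelial markers was 38.1 to 82.1 normalized counts in DMSO and 75.5 to 1779 with trametinib, higher in 4 of 4 lines, and 63.3 and 1779 in line #3. The part of these shifts in the protease values was not tested.

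**Figure D3:**
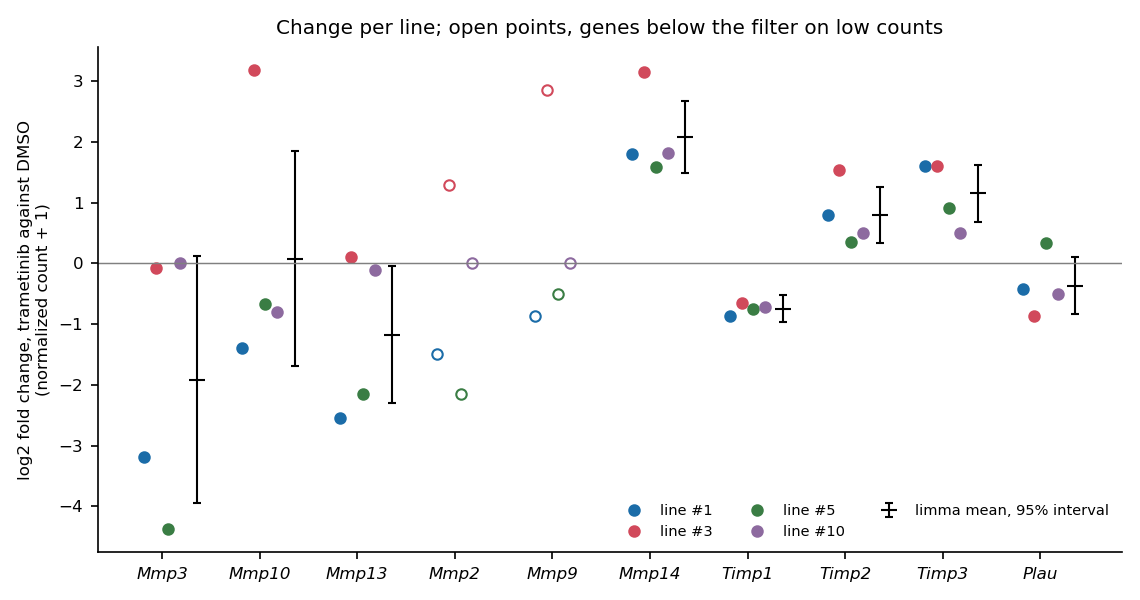
Log2 fold change of normalized count plus 1, trametinib against DMSO, with 1 coloured point per line and, in black, the limma mean with its 95% interval for the 8 genes tested. Open points mark Mmp2 and Mmp9, which are below the filter. The red points of line #3 lie above the other lines for Mmp10 (3.19) and Mmp14 (3.15), and the points of Timp1 run from -0.86 to -0.65.

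Mmp14, Mmp2 and Mmp9 were also set against an inhibitor as the difference of their log2(normalized count + 1), as a description without a test. The difference of Mmp14 to Timp2 was higher with trametinib in 4 of 4 lines, by 1.30 ± 0.25 (SD, n = 4 lines), at 1.01, 1.61, 1.24 and 1.33 in lines #1, #3, #5 and #10. That of Mmp14 to Timp3 was also higher in 4 of 4 lines, by 0.94 ± 0.61 (SD, n = 4 lines), with 0.20 in line #1 and 1.54 in line #3. With trametinib the difference of Mmp2 to Timp2 moved by between -2.51 and -0.24 and that of Mmp9 to Timp1 by between -0.0048 and 3.51, and both rest on the low counts of the gelatinases.

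Related genes came from 6 lists of 76 genes, of which 51 passed the filter. In limma 23 of these passed as higher and 5 as lower, and the median log2 fold change of the 51 was 0.40, where 27.3% of all genes tested were higher and 25.6% lower, with a median of 0.07. Among 17 other MMPs, 8 were tested, 5 were higher and 0 lower in limma (0 lower also at an unadjusted p under 0.05). Mmp15, a membrane-bound relative of Mmp14, went from 215 to 2706 normalized counts in DMSO to 717 to 12703 with trametinib, a change of 2.75 on the log2 scale (limma adjusted p = 0.00090, and 0.062 without the block). Mmp19, with 1.46 to 18.1 normalized counts in DMSO and 30.1 to 114 with trametinib, changed by 2.71 (adjusted p = 0.018 in limma, 0.059 without line #5), and by 1.76 without line #3. The other 3 higher genes, named after their values were seen, were Mmp11 at 2.70, Mmp23 at 1.60 and Mmp24 at 1.54 on the log2 scale. Mmp24 lost the call without the block (adjusted p = 0.29 in limma) and with quantile normalization (0.96 and adjusted p = 0.052).

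ADAM and ADAMTS proteases, which shed cell surface proteins or cut proteoglycans, had 18 of 19 genes tested, 8 higher and 1 lower. Adamts7 went from 12.8 to 76.4 normalized counts in DMSO to 458 to 983 with trametinib, which is 5.20 on the log2 scale (standard error 0.41, adjusted p = 0.00032 in limma). The aggrecanase Adamts5 changed by 3.69 (adjusted p = 0.00059 in limma). Adam9 fell in 4 of 4 lines, from 10848 to 16104 normalized counts in DMSO to 6996 to 8956 with trametinib (log2 fold change -0.78, adjusted p = 0.0023 in limma).

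Of the other genes of the plasminogen system, 7 of 10 were tested, 3 were higher and 1 lower. Plaur, the urokinase receptor, fell in 4 of 4 lines by 0.60 on the log2 scale, with 5304 to 10374 normalized counts in DMSO and 3389 to 7258 with trametinib (adjusted p = 0.0013 in limma, 0.18 without the block). Lrp1, the endocytic receptor that clears protease and inhibitor complexes, changed by 2.35 on the log2 scale (standard error 0.12, adjusted p = 9.4e-05 in limma), and Plgrkt, a plasminogen receptor named after its values were seen, by 1.10. Plat, the tissue plasminogen activator, had 13134 normalized counts in DMSO and 3955 with trametinib in line #1, 11231 and 4564 in line #5, and 5787 and 3270 in line #10, but 1787 and 5660 in line #3. Its log2 fold change was -0.55 over the 4 lines (adjusted p = 0.40 in limma) -1.28 without line #3 (adjusted p = 0.0012 in limma), -0.15 without line #1 (adjusted p = 0.84) and -0.30 without line #5 (adjusted p = 0.72). Plg, the gene of plasminogen itself, was listed at 0 in all libraries.

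Among other inhibitors and regulators of MMPs, 4 of 10 genes were tested. Pcsk6, a proprotein convertase, fell from between 1839 and 3400 normalized counts in DMSO to between 221 and 675 with trametinib (log2 fold change -2.93, standard error 0.21, adjusted p = 0.00024 in limma). Pcsk5, a relative of it, changed by 0.62 (adjusted p = 0.018 in limma, 0.070 without line #1, 0.069 without line #3 and 0.72 without the block), and by 0.35 with quantile normalization (adjusted p = 0.19). Of the cathepsins, cystatins and heparanase, 9 of 11 were tested, 5 were higher and 1 lower. The lysosomal protease genes Ctsd and Ctsh changed by 1.19 (adjusted p = 0.0011 in limma) and 0.77 (adjusted p = 0.018 in limma, 0.43 without the block, and 0.50 as the change without line #10), and the heparanase gene Hpse by -0.82 (adjusted p = 0.016 in limma, 0.25 without the block). Of the membrane serine proteases and their inhibitors, 5 of 9 were tested. St14, the gene of matriptase, changed by 1.21 (adjusted p = 0.012 in limma, 0.055 without line #1 and 0.072 without the block), and by 0.78 with quantile normalization (adjusted p = 0.061). The inhibitor gene Spint2 changed by -0.44 (adjusted p = 0.020 in limma, 0.072 without line #5, 0.067 without line #10, 0.058 with equal totals or quantile normalization, 0.056 without the trend and 0.30 without the block). Spint1, the other inhibitor gene of this list, did not pass (log2 fold change -0.66, adjusted p = 0.16 in limma). Its DMSO libraries ran from 42.8 to 2400 normalized counts.

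**Figure D4:**
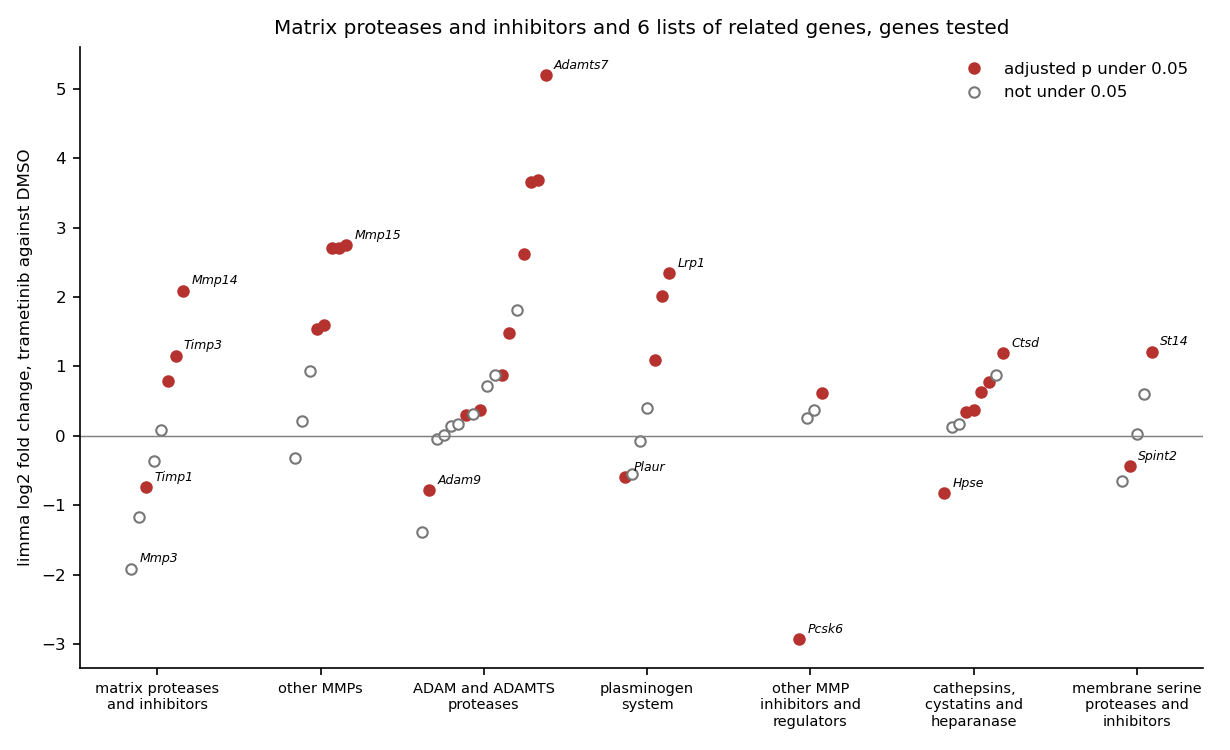
Limma log2 fold changes, trametinib against DMSO, of the tested genes among the 10 matrix proteases and inhibitors and in 6 lists of related genes, with 1 point per gene and filled points for an adjusted p under 0.05. The highest point is Adamts7 at 5.20 and the lowest Pcsk6 at -2.93, and no filled point of the other MMPs lies below 0.

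Library totals were 30680091 to 36385719 normalized counts, from an estimated 29300000 to 46000000 reads. All 8 readout genes of MAPK signaling were lower with trametinib, among them Dusp6 (log2 fold change -2.51), Etv4 (-5.92) and the AP-1 gene Fosl1 (-3.73), and each passed in limma. Of the 8 epithelial markers 7 were tested, 6 were lower and 0 higher. The lower markers were 0 of 7 without the block, 4 with equal totals, quantile normalization or no trend, 5 without line #3 and 3 without line #5. Cdh1, the seventh, moved by -0.02 on the log2 scale (limma adjusted p = 0.88), and Epcam was listed at 0 in 6 of 8 libraries. Of 8 fibroblast markers 4 were tested and 0 passed in limma (0 also at an unadjusted p under 0.05). The summed level of the 8 was 66.0 to 236 normalized counts in DMSO and 63.4 to 149 with trametinib, with Lum at 0 in every library and Col1a2 at 4.29 or less. Others were detected and moved both ways. Pdgfra went from 105 to 19.6 in line #5 but from 9.96 to 56.1 in line #3. Col3a1 went from 97.2 to 11.7 and from 6.92 to 55.3 in the same lines, and Dcn reached 36.6. Of the leukocyte markers, which summed to 150 to 241 and 236 to 516, 4 were tested and 1, Csf1r, was higher (log2 fold change 2.83, and adjusted p = 0.089 in limma without the block), while Ptprc, Cd68 and Itgam did not pass, and the acinar markers summed to at most 14.4.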

How the data were processed

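RNA of 4 PDAC lines, each with DMSO and with trametinib for 48 h, was isolated from cultured cells and made into stranded mRNA libraries. The values deposited by the authors are gene-level normalized counts, a signal made comparable between libraries. The submitters' processing notes name CASAVA 2.17, Salmon 0.12, DESeq2 1.18 and the build mm10, and the annotation is not given in the sources used here. The table's 8 value columns were all used, and 0 were left out. Low values were whole reads for 40.0% to 62.5% of values under 20 reads (tolerance 0.02 reads), so whole reads were not recovered and no count model was used. The level of 3 reads, 2.33 to 3.72 normalized counts, covers counting error only.

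Values were tested as log2(normalized count + 1) with limma 3.58.1 in R 4.3.3 (lmFit and eBayes with a trend, the cell line as a block), for genes with a mean of at least 10, at an adjusted p under 0.05. The fit was tested on simulated data. The labels pair the libraries by cell line, and across genes the deviations of a line's libraries from their group means correlated at 0.66 on average (0.63 to 0.72). Alternatives were pseudocounts of 0.1 and 5, equal library totals, quantile normalization, centring on the median, no filter, a filter at 50, no block, eBayes without trend or with robust estimation, a minimum change of 2-fold, and leaving out each line.

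The genes of the set and the lists were chosen with earlier results of these data known. From each list of related genes the text names Plaur and Plat where present and the 2 largest rises and falls among genes past the threshold and of the same direction in 4 lines. Mmp11, Mmp23, Mmp24 and Plgrkt are marked as named after their values were seen. Plg, Spint1 and the cluster genes Mmp12, Mmp1a, Mmp1b, Mmp7, Mmp8 and Mmp20 are also named outside this rule, without that mark. Also, 1 further gene that the rule names and 1 allele of the model are not reported here. Positions are those of GENCODE M21, and the summed exon length per gene from it gives the values per kb. Promoter windows came from RefSeq, GRCm38.p6. Tables were handled in Python 3.11.15 with pandas 2.3.3 and numpy 2.4.6, and plots drawn with matplotlib 3.10.9.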

Additional observations from a re-analysis of the deposited data

Results flagged for a closer look

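In each treatment group of 4 libraries, and among the 4 changes of each gene, the highest and lowest values were compared with the rest by Dixon's ratio of the gap to the range. Of 30 groups looked at, 5 had a value that stood apart. A rate of 1 in 20 would give about 1.5, but it assumes independent and normally distributed values. The counts of Mmp2, Mmp3 and Mmp9, mostly near 0, do not meet this, so 1.5 cannot be used as the number to be met by chance. In line #3, the log2 fold change of Mmp10 was 3.19, against -1.39 to -0.67 in the other lines, and that of Mmp14 was 3.15, against 1.59 to 1.83. In the trametinib library of line #3, Mmp9 was at 12.0 normalized counts, against 0 to 1.83 in the other trametinib libraries. Mmp2 was at 17.4 normalized counts in the DMSO library of line #5, against 0 to 1.81 in the other DMSO libraries. Mmp3 was at 9.77 normalized counts in the trametinib library of line #1, against 0 to 0.94 in the others.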

How the results depend on the processing

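Of the 10 genes, 8 were tested and 4 passed, 3 higher and 1 lower. Without the line as a block, that is without the pairing of the libraries by cell line, 2 passed, with 2 higher and 0 lower, and Timp1 and Timp3 no longer passed. Against a minimum change of 2-fold, 1 passed, with 1 higher and 0 lower. Quantile normalization gave 2 lower. Leaving out each line gave 4 to 6 called of 7 or 8 tested, with 1 to 3 lower. It gave 1 (without line #1) to 6 (without line #3) with a difference between lines. This difference was shown by 2 genes in the analysis as reported and by 1 each without the filter or without the trend. The log2 fold change of Mmp10 turned to -0.41 with quantile normalization and ran from -0.95 to 0.57 when each line was left out, negative without line #3. For the related genes, 28 passed, 23 higher and 5 lower. These counts were 13, 11 and 2 without the block and 9, 8 and 1 against 2-fold, and lower genes numbered 4 to 8 when each line was left out. Over all genes, 8416 passed, 4341 higher and 4075 lower, against 4552, 2205 and 2347 without the block and 733, 557 and 176 against 2-fold. When each line was left out, 6747 to 8202 of 15712 to 15932 genes tested passed, with 3302 to 4007 lower. Median centring gave 3848 higher and 4492 lower. The cause of these shifts was not tested. Rescaling to equal totals moved the median of all genes by 0.13 and quantile normalization by -0.10 on the log2 scale. Mmp3 could not be fitted in 2 of the 15 alternatives and Mmp10 in 1, where their mean fell below the filter. Of the comparisons of single genes of the set with an alternative, 107 kept direction and side of the threshold, 3 gained and 5 lost the call in the same direction, and 2 turned direction, of which Mmp10 without line #3 also gained the call. For Mmp2, Mmp9 and Mmp3 the depth limits any statement, as most of their libraries hold 3 reads or fewer.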
